A study of Mus musculus with 24 samples.

Results

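The receptors through which eosinophils sense interleukin 33 (IL-33), IL-25, thymic stromal lymphopoietin (TSLP), IL-4 and IL-13 were followed as 9 genes: Il1rl1, Il1rap and Myd88 for IL-33, Il17rb and Il17ra for IL-25, Crlf2 and Il7r for TSLP, and Il4ra and Il13ra1 for IL-4 and IL-13. They were chosen by name, among the 24982 genes of the files, and all 9 were found. Eosinophils were sorted from the bone marrow of wild type C57BL6 mice as 4 successive stages of maturation, I to IV, in steady state or after IL-33 given into the peritoneum, 400 ng a day for 7 days. Each of the 8 groups held 3 libraries, 24 in all, and each library came from cells pooled from 3 mice. Before the sort, cells were depleted of those positive for CD45R, NK1.1, CD90.2 or Ly6G, the sort itself used CD117, CD200R3, Pir-A/B, CD55, CD29, Siglec-F and F4/80, and none of the 9 genes encodes one of these sort markers. No age of the mice and no injected control is given in the sources used here, so an effect of injection and one of IL-33 cannot be told apart.

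IL-33, IL-25 and TSLP are released mainly by barrier tissues and start type 2 immunity, while IL-4 and IL-13 are made by type 2 immune cells. IL-33 binds Il1rl1 (ST2), which pairs with the shared chain Il1rap and signals through the adaptor Myd88. IL-25 binds Il17rb, which pairs with Il17ra, and TSLP binds Crlf2 together with Il7r. Il4ra pairs with the common gamma chain for IL-4, or with Il13ra1 for IL-4 and IL-13, and signals through JAK kinases and STAT6. Il1rl1 also gives a soluble decoy form, and these counts per gene do not separate it from the membrane form.

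The results turn most on Il1rl1 and Il17rb, and the DNA at their starts is shown for that reason. Il1rl1 lies on chromosome 1 at 40429570 to 40465415 (GRCm38, plus strand) and has a distal and a proximal start in RefSeq. Il17rb lies on chromosome 14 at 29996135 to 30008896 on the minus strand. Its start is separated by 126 bases from that of Chdh, a choline dehydrogenase gene read in the opposite direction. The sequences below are from RefSeq's GRCm38.p6, given 5′ to 3′ on the strand of the receptor gene. The first 2 are the 250 bases before each Il1rl1 start, at chr1:40429320-40429569 and chr1:40439379-40439628, and the third is the stretch between Il17rb and Chdh at chr14:30008897-30009022. Capitals mark GATAA, the core bound by GATA factors, on either strand, so that a match on the other strand reads TTATC.
Il1rl1 distal: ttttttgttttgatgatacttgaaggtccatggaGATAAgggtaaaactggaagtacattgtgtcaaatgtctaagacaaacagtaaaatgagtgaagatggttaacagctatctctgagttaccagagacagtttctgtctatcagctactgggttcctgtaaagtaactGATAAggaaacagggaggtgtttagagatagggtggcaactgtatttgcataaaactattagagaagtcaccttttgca
Il1rl1 proximal: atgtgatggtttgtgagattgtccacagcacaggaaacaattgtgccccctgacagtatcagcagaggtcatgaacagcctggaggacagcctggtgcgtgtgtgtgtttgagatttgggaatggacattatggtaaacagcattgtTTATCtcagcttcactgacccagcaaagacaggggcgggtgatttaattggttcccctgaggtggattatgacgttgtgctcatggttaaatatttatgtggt
Il17rb to Chdh: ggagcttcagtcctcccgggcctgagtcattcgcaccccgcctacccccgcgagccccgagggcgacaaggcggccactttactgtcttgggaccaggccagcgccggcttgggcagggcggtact

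The distal Il1rl1 stretch held 2 matches, 216 and 79 bases before the start, and the proximal one held 1, 103 bases before. Among 32851 promoter stretches of that length in the RefSeq table, 22.6% held at least 1 match. The stretch between Il17rb and Chdh had none, and it was richer in G and C (69.8%) than the distal (37.6%) and proximal (46.4%) stretches of Il1rl1. It held 11 CG pairs, against 0 and 3. TTCNNNGAA, a form of the palindrome bound by STAT factors, was found on either strand before 2 members, Myd88 and Il7r, and before 7.02% of all promoters. The form with 4 free bases, TTCNNNNGAA, was found before no member and before 5.85% of promoters. RefSeq entries were matched for 8 of the 9 genes and not for Il17ra.

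The libraries held 8335138 to 14909453 gene counts. Epx and Prg2, which encode granule proteins that define eosinophils, were present in every group, although Epx in stage IV was at 18.6 to 26.5 CPM (counts scaled to the same total in each library) in steady state, against 4503 to 6899 CPM after IL-33. Reads assigned to no gene made up 17.8% to 30.5% of reads in the steady state libraries and 9.19% to 16.6% in the IL-33 libraries, so that this share and the condition cannot be told apart. The 4 steady state libraries numbered 3, 1 in each stage, stood apart by immediate early genes: Atf3 ranged from 164.5 to 1063 CPM there, against 1.33 to 52.0 CPM elsewhere. Calls on the 9 genes that change without these 4 libraries are given with their values.

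All levels, above and below, are CPM scaled with TMM (trimmed mean of M values) factors. A difference is called where the quasi-likelihood test of edgeR, fitted over all 24 libraries, gave an adjusted p under 0.05 among the 12743 genes tested. Log2 fold changes (log2) are given with their standard error (SE). In sorted cells in bulk, fewer cells of a kind and less RNA per cell cannot be told apart.

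**Figure D1:**
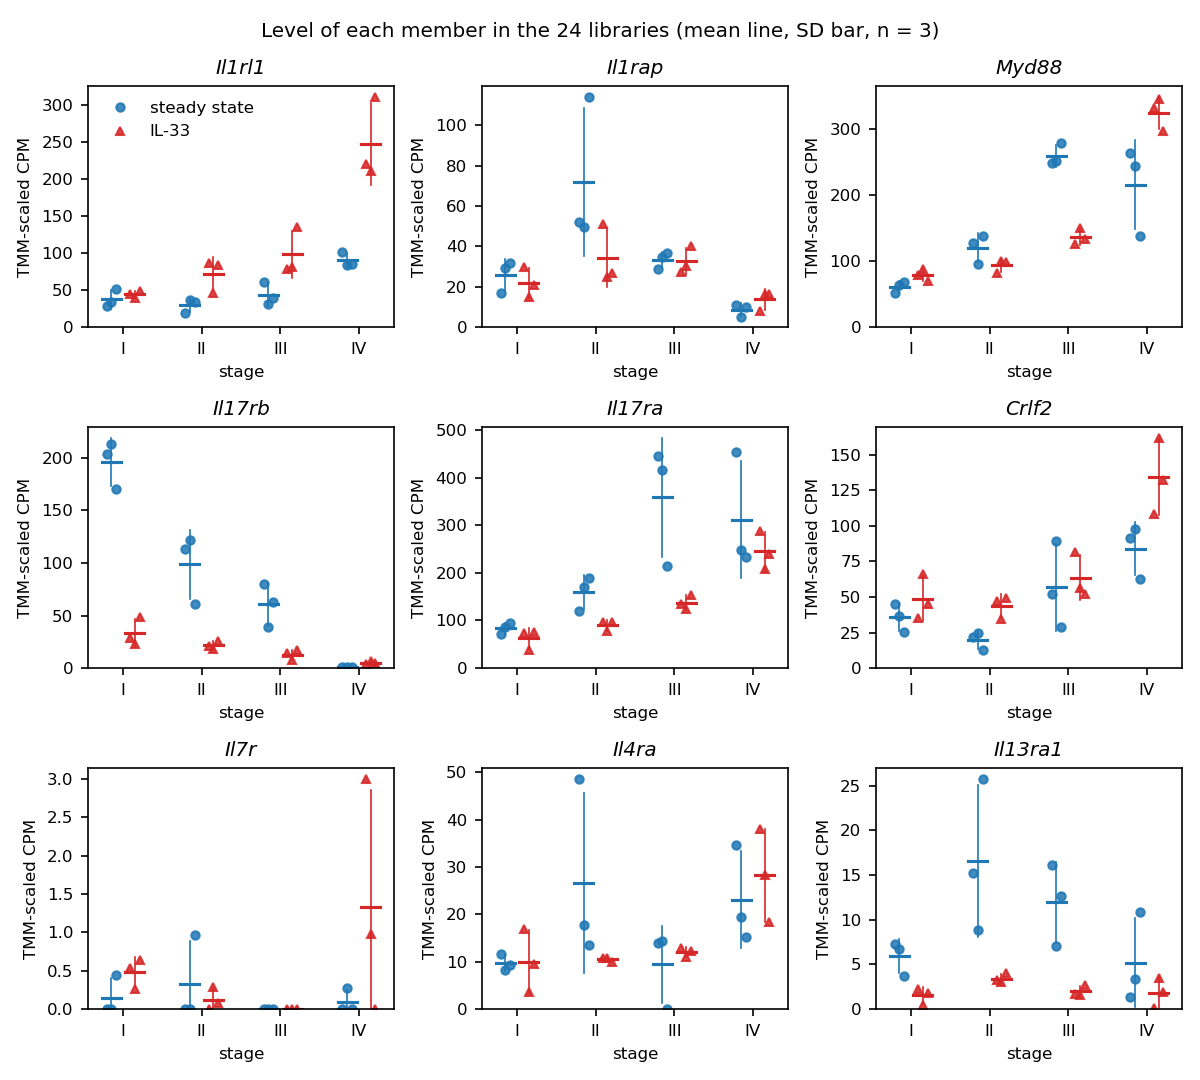
TMM-scaled CPM (linear axes from 0) of the 9 genes in the 24 libraries, by stage on the x axis; circles are steady state, triangles are IL-33, lines are means and bars are SD (n = 3). Il1rl1 was highest in stage IV under IL-33 (210.3 to 311 CPM), and Il17rb was highest in stage I of steady state (170.2 to 213 CPM).

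Il1rl1, the chain that binds IL-33, was highest in the most mature stage in both conditions, and higher under IL-33 in stages II, III and IV. In steady state its 3 libraries, in the order of their numbers, stood at 27.9, 33.2 and 51.7 CPM (stage I), 18.7, 37.1 and 33.4 CPM (stage II), 60.9, 31.1 and 38.9 CPM (stage III), and 102.1, 83.5 and 85.7 CPM (stage IV). The stages I to III overlapped, and all 3 stage IV libraries lay above them. Under IL-33 the libraries stood at 44.7, 38.8 and 48.9 CPM (stage I), 86.0, 46.5 and 84.3 CPM (stage II), 79.1, 80.7 and 134.9 CPM (stage III), and 220.0, 210.3 and 311 CPM (stage IV). Stages II and III overlapped, and stage IV stood above every other group.

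From stage III to IV Il1rl1 rose 2.07-fold in steady state (log2 1.05, SE 0.32, adjusted p = 0.0396) and 2.52-fold under IL-33 (log2 1.33, SE 0.32, adjusted p = 0.00294). The steady state rise was not called without the 4 libraries numbered 3 (log2 1.10, adjusted p = 0.0962), nor without library 2 or 3 of stage III or library 1 or 3 of stage IV (log2 0.86, 0.98, 0.95 and 1.09, adjusted p between 0.0718 and 0.140). The difference between the rises was log2 0.28 (SE 0.45, adjusted p = 0.738). Under IL-33 Il1rl1 was higher than in steady state, 2.42-fold in stage II (log2 1.28, SE 0.32, adjusted p = 0.0157), 2.25-fold in stage III (log2 1.17, SE 0.32, adjusted p = 0.00704) and 2.73-fold in stage IV (log2 1.45, SE 0.32, adjusted p = 0.00407). In stage I the means were 44.2 CPM ± 5.08 (SD, n = 3) and 37.6 CPM ± 12.5 (SD, n = 3) and the groups overlapped (adjusted p = 0.754). The stage II call was lost without library 1 of steady state or library 1 or 3 of IL-33 (log2 1.04, 1.14 and 1.16, adjusted p between 0.0670 and 0.0703), and the stage III call without library 3 of IL-33 (log2 0.88, adjusted p = 0.0600). The joint test of whether the IL-33 effect differs among the stages gave an adjusted p of 0.164.

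Basophils and mast cells, and type 2 innate lymphoid cells, are known to carry Il1rl1 as well. The summed level of 10 basophil and mast cell markers was 737 to 1101 CPM in stage III of steady state and 3281 to 3634 CPM under IL-33, and 136 to 814 against 2421 to 3613 CPM (stage IV). In both stages 6 of the 8 that could be tested were called higher and 1 lower. Of all genes, 33.4% were called in stage III and 12.2% in stage IV. In stage II the sums overlapped, at 1459 to 3724 CPM in steady state and 2185.5 to 2766 CPM under IL-33. There 1 was called higher and 2 lower, against 8.03% of all genes. From stage III to IV, where Il1rl1 rose, 0 were called higher and 3 lower in steady state, against 9.23% of all genes. Under IL-33 1 was called higher and 1 lower in that step, against 29.1%. Mcpt4 and Tpsb2, proteases of mast cells, were at 0 in all 8 groups. In stage IV the mean of Mcpt8, a protease of basophils, went from 130.0 CPM (steady state) to 39.3 CPM (IL-33). That of Prss34 went from 182 to 5.95 CPM. The means of the other tested markers were higher with IL-33 in this stage. Cpa3 went from 34.9 to 554 CPM, Gata2 from 8.80 to 578 CPM and Cd200r3 from 18.3 to 691 CPM. Fcer1a went from 17.2 to 190 CPM, Ms4a2 from 2.71 to 96.25 CPM and Hdc from 111 to 819 CPM. The list contains Cd200r3, which encodes a marker of the sort. Gata3 and Icos, listed as markers of type 2 innate lymphoid cells, had no count in any library. The summed level of the 10 markers listed for these cells was nonetheless 908 to 1231 CPM in stage III of steady state and 188 to 265 CPM under IL-33, and 1129 to 1581 against 666 to 986 CPM (stage IV), most of it from Id2, which averaged 1378 and 798 CPM in stage IV. Of the 4 that could be tested 0 were called in stage IV, against 12.2% of all genes, and 2 were called lower in stage III, against 33.4%. The part of RNA from these cells in the Il1rl1 result was not tested.

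Il1rap, the signalling partner of Il1rl1, was lowest in stage IV, where Il1rl1 was highest. The steady state libraries stood at 16.9, 29.2 and 31.6 CPM (stage I), 52.1, 49.6 and 114 CPM (stage II), 28.6, 34.5 and 36.7 CPM (stage III), and 10.9, 4.90 and 9.87 CPM (stage IV). Stage II was highest and stage IV lowest, with no overlap between a stage and the next. Under IL-33 the levels were 29.7, 15.0 and 20.7 CPM (stage I), 51.2, 24.9 and 27.0 CPM (stage II), 27.1, 30.4 and 40.2 CPM (stage III), and 7.92, 16.5 and 16.6 CPM (stage IV).

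Il1rap fell from stage III to IV 3.89-fold in steady state (log2 -1.96, SE 0.42, adjusted p = 0.00456) and 2.38-fold under IL-33 (log2 -1.25, SE 0.41, adjusted p = 0.0248). The steady state call was lost without library 2 of stage IV (log2 -1.56, adjusted p = 0.0511), and the IL-33 call without library 3 of stage III or library 1 of stage IV (log2 -1.07 and -0.97, adjusted p = 0.0959 and 0.121). In steady state it rose 2.78-fold from stage I to II (log2 1.47, SE 0.41, adjusted p = 0.0398) and fell 2.16-fold from II to III (log2 -1.11, SE 0.41, adjusted p = 0.0373). Both values leaned on library 3 of stage II: without it they were log2 0.97 (adjusted p = 0.233) and log2 -0.61 (adjusted p = 0.266). Leaving out any library of stage I also ended the rise (adjusted p between 0.0525 and 0.176), and leaving out any of stage III ended the fall (adjusted p between 0.0599 and 0.107). Without the 4 steady state libraries numbered 3, neither the rise (log2 1.16, adjusted p = 0.179) nor the fall (log2 -0.77, adjusted p = 0.209) was called. Il1rap was called between IL-33 and steady state in no stage by this test (adjusted p between 0.110 and 0.967). In stage II, where the groups overlapped, its log2 value was -1.07 (SE 0.41, adjusted p = 0.110). DESeq2 called it lower under IL-33 there (log2 -1.14, adjusted p = 0.0453).

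The ratio of the chains can be read within each library, as counts per kilobase of merged exons, which compares RNA and not protein. Il1rl1 over Il1rap had a median of 0.592 in stage II of steady state (0.483 to 1.23) and of 15.4 in stage IV (14.3 to 28.1). Under IL-33 the median was 3.08 in stage II (2.77 to 5.14) and 30.8 in stage IV (20.97 to 45.8). In stages II and III every IL-33 library had a higher ratio than every steady state library, while in stages I and IV the conditions overlapped.

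Myd88, the adaptor shared by IL-1 family and Toll-like receptors, was highest in stages III and IV of steady state and in stage IV alone under IL-33. In steady state its libraries stood at 51.0, 63.4 and 68.5 CPM (stage I), 126.9, 96.0 and 138.1 CPM (stage II), 248.8, 250.9 and 278 CPM (stage III), and 264, 243 and 138.2 CPM (stage IV). Stages III and IV overlapped, and library 3 of stage IV was lowest of the 6. Under IL-33 they stood at 79.1, 88.1 and 70.3 CPM (stage I), 82.3, 100.0 and 98.7 CPM (stage II), 126.4, 150.3 and 133.0 CPM (stage III), and 331, 346 and 297 CPM (stage IV), where the 3 libraries lay above every other group.

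Myd88 rose in steady state 1.97-fold from stage I to II (log2 0.98, SE 0.22, adjusted p = 0.00991) and 2.15-fold from II to III (log2 1.11, SE 0.22, adjusted p = 0.000422), whereas from III to IV its log2 value was -0.27 (SE 0.21, adjusted p = 0.473). Without library 1 of stage I the first step was log2 0.87 (adjusted p = 0.0640). Under IL-33 the log2 values were 0.24 from I to II (SE 0.21, adjusted p = 0.929) and 0.54 from II to III (SE 0.21, adjusted p = 0.631). The second was called by limma-voom (log2 0.51, adjusted p = 0.0139) and with the compared groups fitted alone (log2 0.54, adjusted p = 0.0398). The rise under IL-33 called by edgeR over all libraries was from III to IV, 2.38-fold (log2 1.25, SE 0.22, adjusted p = 0.000138). The difference between conditions in this last step was log2 1.52 (SE 0.30, adjusted p = 0.00111). In stage III Myd88 was 1.90-fold lower under IL-33 (log2 -0.92, SE 0.22, adjusted p = 0.00206), and in stage IV its log2 value was 0.59 (SE 0.21, adjusted p = 0.0722), with no overlap of the groups in either stage. The stage IV difference was called by limma-voom (log2 0.49, adjusted p = 0.0349) and without library 1 of steady state (log2 0.77, adjusted p = 0.0372). The IL-33 effect differed among the stages (adjusted p = 0.00297). Myd88, on chromosome 9 at 119335934 to 119341411, shares 290 exonic bases with Acaa1a on the other strand, and the library kit does not mark strand. Acaa1a averaged 174 CPM in stage III of steady state and 90.1 CPM under IL-33, and 175 and 197 CPM in stage IV, and reads of the shared bases cannot be told apart.

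Il17rb, the chain that binds IL-25, fell from stage III to IV in both conditions, and it was lower under IL-33 in stages I to III and higher in stage IV. Its steady state libraries stood at 204, 213 and 170.2 CPM (stage I), 113.1, 122.3 and 61.3 CPM (stage II), 79.9, 39.4 and 62.5 CPM (stage III), and 1.48, 1.02 and 0.685 CPM (stage IV). These last values rest on 17, 11 and 5 counts. Under IL-33 the libraries stood at 28.8, 23.4 and 48.4 CPM (stage I), 20.8, 18.5 and 25.8 CPM (stage II), 13.95, 7.57 and 16.8 CPM (stage III), and 3.67, 6.61 and 4.36 CPM (stage IV). In each stage the 2 conditions did not overlap, and the order of the conditions was the opposite in stage IV from that in the earlier stages. The highest group mean, 195.8 CPM, was 185 times the lowest, 1.06 CPM, the widest range among the 8 members tested.

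Il17rb was lower under IL-33, 5.84-fold in stage I (log2 -2.55, SE 0.36, adjusted p = 0.000233), 4.55-fold in stage II (log2 -2.19, SE 0.36, adjusted p = 0.000595) and 4.74-fold in stage III (log2 -2.25, SE 0.36, adjusted p = 6.37e-05). In stage IV it was 4.46-fold higher (log2 2.16, SE 0.43, adjusted p = 0.00148), at a mean of 4.88 CPM ± 1.54 (SD, n = 3) against 1.06 CPM ± 0.397 (SD, n = 3). The stage IV call was lost with limma-voom (log2 2.24, adjusted p = 0.0959) and when the compared groups were fitted alone (log2 2.14, adjusted p = 0.119). From stage III to IV it fell 55.2-fold in steady state (log2 -5.79, SE 0.45, adjusted p = 2.11e-08) and 2.61-fold under IL-33 (log2 -1.38, SE 0.37, adjusted p = 0.00645). The difference between these falls was log2 4.40 (SE 0.56, adjusted p = 1.33e-05), and the IL-33 effect differed among the stages (adjusted p = 1.52e-05). From I to II in steady state the log2 value was -0.99 (SE 0.35, adjusted p = 0.104), and it was called with the replicate number as a block (log2 -1.02, adjusted p = 0.0463). From stage II to III in steady state the log2 value was -0.71 (adjusted p = 0.118), and it was called without library 3 of stage II (log2 -0.96, adjusted p = 0.0431) and without the 4 libraries numbered 3 (log2 -1.06, adjusted p = 0.0439). Under IL-33 the log2 values were -0.63 from I to II (SE 0.35, adjusted p = 0.788; called by limma-voom, log2 -1.001, adjusted p = 0.00896) and -0.77 from II to III (SE 0.35, adjusted p = 0.888). Il17rb shares 141 exonic bases with Actr8 on the other strand, which averaged between 42.3 and 76.5 CPM over the groups.

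Stem and progenitor cells could also be carried along in the early stages. The summed level of 8 of their markers was 3748 to 4953 CPM in stage I of steady state and 2304 to 3578 CPM under IL-33, 2305 to 8702 against 738 to 910.5 CPM (stage II), 185 to 467 against 122 to 141 CPM (stage III), and 453.9 to 994 against 160 to 669 CPM (stage IV). Of the 8, none was called higher under IL-33 in any stage, and 1, 3, 3 and 3 were called lower in stages I to IV. Of all genes, 4.06%, 8.03%, 33.4% and 12.2% were called in these stages, in either direction. Most of the sum in stage I of steady state was from Mpo, Elane and Prtn3, with means of 2968, 769 and 267 CPM. Kit and Cd34 averaged 187 and 169 CPM there, and Meis1, Hlf and Flt3 between 0.897 and 9.68 CPM. Meis1 was highest in stage IV of steady state, at a mean of 92.7 CPM. The list contains Kit, which encodes CD117, a marker of the sort. The part of stem and progenitor cells in the Il17rb result was not tested.

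Il17ra, the partner of Il17rb and of other receptors of the IL-17 family, was lowest in stage I in both conditions, where Il17rb was highest. The steady state libraries stood at 71.8, 85.3 and 93.9 CPM (stage I), 119.5, 169.7 and 189.4 CPM (stage II), 444.2, 417 and 215 CPM (stage III), and 452.97, 249 and 233 CPM (stage IV). Under IL-33 they stood at 74.2, 37.4 and 75.2 CPM (stage I), 96.8, 76.9 and 96.3 CPM (stage II), 135.5, 123.1 and 153.2 CPM (stage III), and 288, 208 and 239 CPM (stage IV). Stages III and IV overlapped in steady state, and stage IV stood above the rest under IL-33.

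Il17ra rose 2.25-fold from stage II to III in steady state (log2 1.17, SE 0.30, adjusted p = 0.00430) and 1.78-fold from III to IV under IL-33 (log2 0.83, SE 0.30, adjusted p = 0.0381). The second of these was lost with any library of stage III, or library 1 or 3 of stage IV, left out (log2 0.70 to 0.92, adjusted p between 0.0620 and 0.135), and with library totals as the scaling (log2 0.60, adjusted p = 0.169). The first was lost when the compared groups were fitted alone (log2 1.08, adjusted p = 0.0513). From III to IV in steady state, where Il17rb fell furthest, the log2 value of Il17ra was -0.20 (SE 0.30, adjusted p = 0.734), and this step differed between conditions by log2 1.04 (SE 0.42, adjusted p = 0.0905; called by limma-voom, log2 1.02, adjusted p = 0.0222). From I to II in steady state its log2 value was 0.93 (SE 0.30, adjusted p = 0.0723). DESeq2 (log2 0.95, adjusted p = 0.0289) and the fit with the replicate number as a block (log2 0.94, adjusted p = 0.0405) called it. Under IL-33 neither the step from I to II (log2 0.53, adjusted p = 0.790) nor that from II to III (log2 0.61, adjusted p = 0.942) was called, and limma-voom and the fit of the compared groups alone called the second (log2 0.64 and 0.60, adjusted p = 0.0232 and 0.0386). In stage III it was 2.61-fold lower under IL-33 (log2 -1.38, SE 0.30, adjusted p = 0.00115), and the conditions did not overlap. They did not overlap in stage II either (log2 -0.83, SE 0.30, adjusted p = 0.0908), where DESeq2 called Il17ra lower (log2 -0.91, adjusted p = 0.0333). In stage IV the means were 245 CPM ± 40.0 and 312 CPM ± 123 (SD, n = 3 each), and the conditions overlapped (adjusted p = 0.489).

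The median ratio of Il17rb to Il17ra per kilobase of exon was lower in each stage than in the one before in both conditions. In steady state its median was 5.85 in stage I (4.23 to 6.64), 1.68 in stage II, 0.420 in stage III and 0.00761 in stage IV (0.00687 to 0.00955). Under IL-33 it was 1.46 in stage I (0.906 to 1.505), 0.563 in stage II, 0.241 in stage III and 0.0427 in stage IV (0.0298 to 0.0742). In stage I every IL-33 library lay below every steady state library, and in stage IV every IL-33 library lay above.

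**Figure D2:**
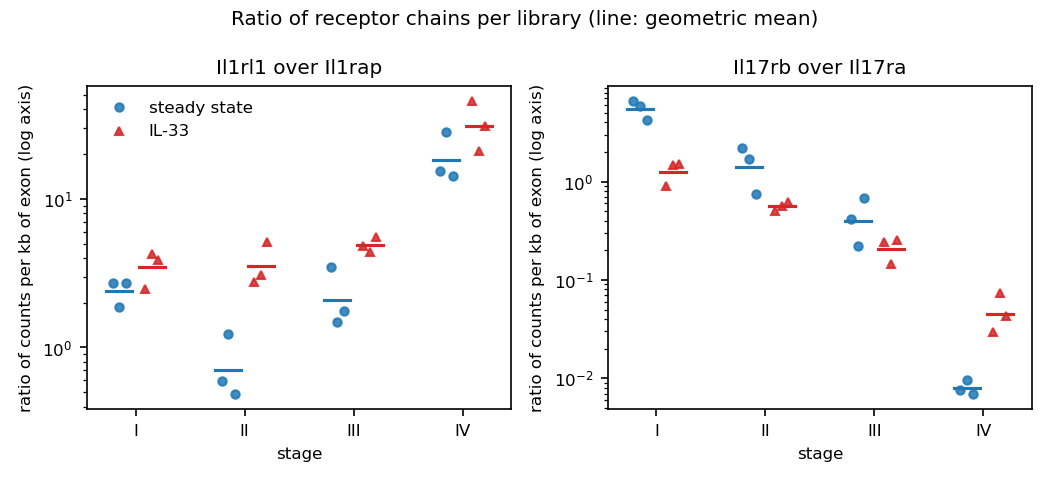
Ratio of counts per kilobase of merged exons within each library (log axes), Il1rl1 over Il1rap and Il17rb over Il17ra, by stage; circles are steady state, triangles are IL-33 and lines are geometric means of 3 libraries. The first ratio was highest in stage IV (medians of 15.4 and 30.8), where the second was lowest (medians of 0.00761 and 0.0427).

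Crlf2, the chain that binds TSLP, had its highest mean in stage IV in both conditions. In steady state its libraries stood at 45.4, 36.4 and 25.5 CPM (stage I), 21.6, 25.0 and 12.9 CPM (stage II), 51.8, 89.5 and 29.2 CPM (stage III), and 91.3, 97.4 and 62.7 CPM (stage IV). In each of these 4 stages library 3 was lowest. Under IL-33 the libraries stood at 34.9, 66.1 and 45.1 CPM (stage I), 47.5, 34.7 and 49.3 CPM (stage II), 81.8, 56.5 and 52.3 CPM (stage III), and 108.4, 162.0 and 132.3 CPM (stage IV).

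Crlf2 rose 2.86-fold from stage II to III in steady state (log2 1.52, SE 0.36, adjusted p = 0.00241) and 2.11-fold from III to IV under IL-33 (log2 1.08, SE 0.35, adjusted p = 0.0242). The first was lost when the compared groups were fitted alone (log2 1.43, adjusted p = 0.0689). The second was lost with library totals as the scaling (log2 0.83, adjusted p = 0.104) and without library 2 or 3 of stage III or library 2 or 3 of stage IV (log2 0.92 to 1.09, adjusted p between 0.0536 and 0.0998). In no single stage was it called between conditions, although in stage II the groups did not overlap (log2 1.14, SE 0.36, adjusted p = 0.0503). DESeq2 (log2 1.06, adjusted p = 0.0361) and edgeR without the filter on low counts (log2 1.16, adjusted p = 0.0430) called this stage II difference. In stage IV the groups did not overlap either (log2 0.68, SE 0.35, adjusted p = 0.219). Averaged over the 4 stages it was 1.52-fold higher under IL-33 (log2 0.61, SE 0.18, adjusted p = 0.00911), and this was lost without the 4 steady state libraries numbered 3 (log2 0.33, adjusted p = 0.0932).

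Il7r, the other chain of the TSLP receptor and also of the IL-7 receptor, was close to undetected. It had counts in 10 of 24 libraries and 85 counts in all, and did not pass the filter on low counts. None of the 6 stage III libraries had a count, which allows up to 3 counts a library, or between 0.201 and 0.364 CPM, for counting error only. The highest values were 31 and 11 counts (2.99 and 0.983 CPM) in libraries 1 and 2 of stage IV under IL-33, and library 3 of that group had none. Tested without the filter, its lowest adjusted p was 0.0521, for the step from III to IV under IL-33. The summed level of 10 lymphocyte markers was between 25.3 and 99.7 CPM over all 24 libraries.

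Il4ra, the chain shared by both IL-4 receptors, was called in none of the 15 comparisons by edgeR with all libraries. Its steady state libraries stood at 11.6, 8.35 and 9.21 CPM (stage I), 48.5, 17.8 and 13.6 CPM (stage II), 13.96, 14.3 and 0.106 CPM (stage III), and 34.6, 19.4 and 15.2 CPM (stage IV). The value of 0.106 CPM is 1 count in a library where the other members had between 119 and 2621 counts, leaving aside Il7r. Under IL-33 they stood at 16.9, 3.58 and 9.53 CPM (stage I), 10.8, 10.8 and 10.0 CPM (stage II), 12.9, 10.9 and 12.3 CPM (stage III), and 38.1, 28.3 and 18.5 CPM (stage IV). All 3 libraries of stage IV lay above all 3 of stage III in both conditions, with log2 values of 1.29 (SE 0.76, adjusted p = 0.302) in steady state and 1.23 (SE 0.75, adjusted p = 0.233) under IL-33. The second was called by limma-voom (log2 1.05, adjusted p = 0.0222) and when the compared groups were fitted alone (log2 1.16, adjusted p = 0.0119). In stage II every IL-33 library lay below every steady state library (log2 -1.34, SE 0.75, adjusted p = 0.293), and without the 4 steady state libraries numbered 3 this difference was called (log2 -1.75, adjusted p = 0.0331).

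Il13ra1, the chain that joins Il4ra in the receptor for IL-13, was scarce and lower under IL-33. In steady state its libraries stood at 7.24, 6.73 and 3.74 CPM (stage I), 15.2, 8.85 and 25.7 CPM (stage II), 16.1, 7.09 and 12.6 CPM (stage III), and 1.30, 3.42 and 10.8 CPM (stage IV). Under IL-33 they stood at 2.30, 0.436 and 1.83 CPM (stage I), 3.202, 3.00 and 4.04 CPM (stage II), 1.71, 1.61 and 2.73 CPM (stage III), and 0.0965, 3.48 and 1.91 CPM (stage IV). The conditions did not overlap in stages I to III and overlapped in stage IV.

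Under IL-33 Il13ra1 was 5.90-fold lower in stage III (log2 -2.56, SE 0.85, adjusted p = 0.0232) and 4.19-fold lower on average over the stages (log2 -2.07, SE 0.42, adjusted p = 0.000484). In stages I and II the log2 values were -1.94 (SE 0.84, adjusted p = 0.188) and -2.28 (SE 0.83, adjusted p = 0.0961). The stage II difference was called by DESeq2 (log2 -2.36, adjusted p = 0.0209) and limma-voom (log2 -2.02, adjusted p = 0.0215). It was also called with the compared groups fitted alone (log2 -2.37, adjusted p = 0.0383). That of stage I was called by limma-voom (log2 -1.74, adjusted p = 0.0319). The other alternatives called neither. The stage III call was lost without library 1 of steady state or library 1 or 2 of IL-33 (log2 -2.28 to -2.45, adjusted p between 0.0633 and 0.0897).

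Neutrophil markers were lower under IL-33 in stage III, where Myd88, Il17rb, Il17ra and Il13ra1 were called lower. The summed level of 9 neutrophil genes was 18587 to 22753 CPM in stage III of steady state and 2631 to 3827 CPM under IL-33. In that stage 9 of 9 were called lower, against 33.4% of all genes called in either direction. Of 10 monocyte, macrophage and dendritic cell markers 5 were called lower and none higher, with sums of 1647 to 2271 CPM and 1142 to 1372 CPM. From stage III to IV under IL-33 Myd88 and Il17ra rose, Il17rb fell and Il13ra1 was not called (log2 -0.13, adjusted p = 0.928). In that step the neutrophil sum went to 5779.6 to 9587 CPM, with 4 of 9 called higher. That of the monocyte, macrophage and dendritic cell markers went to 2722.5 to 3033 CPM, with 2 of 10 called higher. Most of it was from Ly6c2 (means of 1118 and 2303 CPM in stages III and IV) and Csf1r (76.5 and 527 CPM). Of all genes, 29.1% were called in that step. The part of these cells in the values of Myd88, Il17rb, Il17ra and Il13ra1 was not tested.

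Taking the 9 genes by comparison, 8 passed the filter on low counts and were tested. In steady state 2 of 8 were called from stage I to II, both higher, against 4.87% of all genes tested. From II to III 4 were called, 3 higher and 1 lower, against 34.6%, and from III to IV 3, 1 higher and 2 lower, against 9.23%. Numbers pair the libraries from stage I to II, and with the number as a block 4 of 8 were called there, while the calls over all genes went from 620 to 1069 of 12743. Under IL-33 none was called by edgeR from stage I to II, against 0.0942% of all genes. From II to III none was called either, against 0.0863%. At an unadjusted p under 0.05 there were 1 and 2 members, against 821 and 684 of the 12743 genes. DESeq2 called 0 members in both steps, against 38 of 8286 genes and 110 of 13049. With limma-voom 1 and 2 members were called, against 905 and 1089 of 12743 genes. From III to IV under IL-33, 6 of 8 were called, 4 higher and 2 lower, against 29.1%. Leaving out library 3 of stage III left 3 called, against 2874 of 13186 genes. In the step from I to II of steady state none was called without library 1 of stage I, against 307 of 13168 genes.

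**Figure D3:**
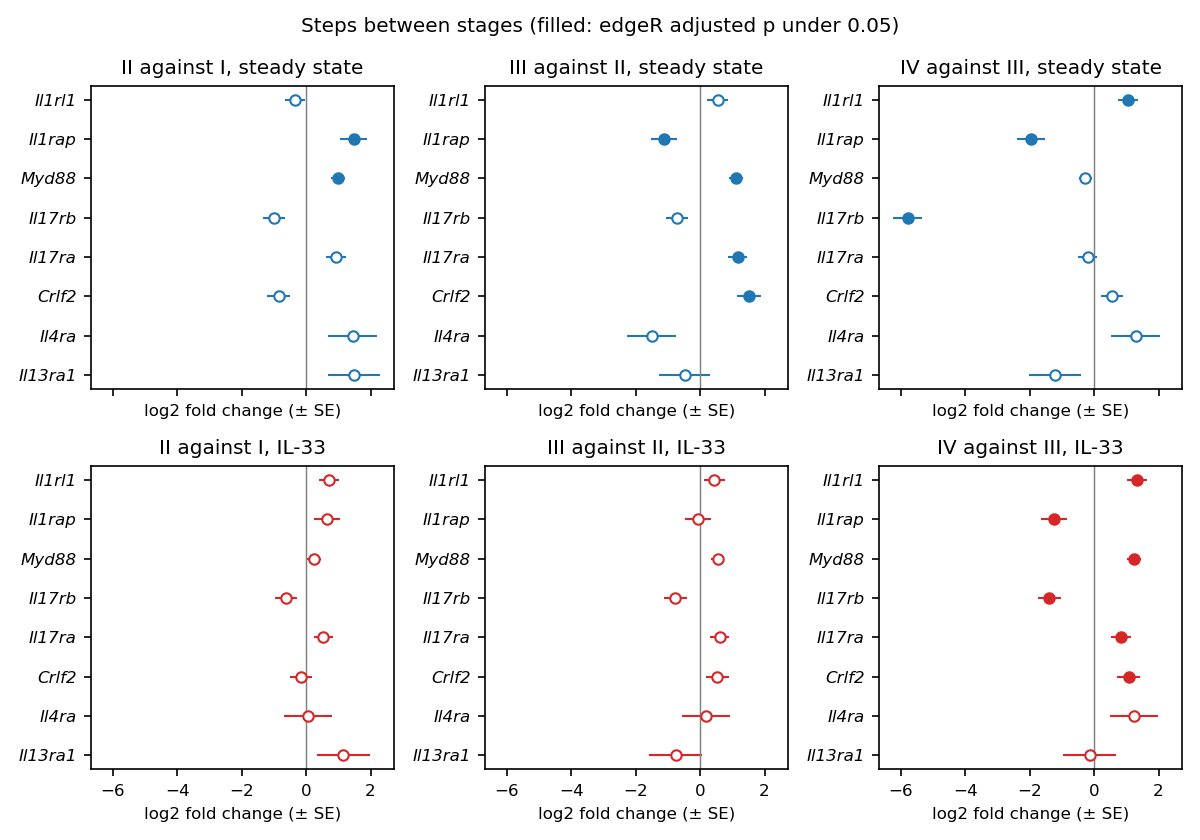
Log2 fold change (x axis, with SE bars) of the 8 tested genes in each step between stages, steady state above and IL-33 below; filled points passed an edgeR adjusted p of 0.05. The called values under IL-33 are all in the step from III to IV, where Il17rb was at -1.38 against -5.79 in steady state.

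Between conditions, 1 of 8 was called in stage I (Il17rb, lower), against 4.06% of all genes, and 2 in stage II (Il1rl1 higher, Il17rb lower), against 8.03%. In stage III 5 were called, 1 higher and 4 lower, against 33.4%, with a median log2 of -0.48 over the 8 genes and 0 over all genes. In stage IV 2 were called, both higher (Il1rl1 and Il17rb), against 12.2%, with a median of 0.64 and of -0.04 over all genes. Averaged over the stages 5 were called, 2 higher (Il1rl1 and Crlf2) and 3 lower (Il17rb, Il17ra and Il13ra1), against 38.1%. These average values were log2 1.03 (SE 0.16, adjusted p = 2.64e-05) for Il1rl1, -1.21 (SE 0.19, adjusted p = 2.88e-05) for Il17rb and -0.75 (SE 0.15, adjusted p = 0.000415) for Il17ra. For Il17rb the average joins stages of opposite sign. With the share of reads assigned to no gene as a covariate, none of the 5 average calls was kept. The values were log2 1.14 for Il1rl1 (adjusted p = 0.120), -1.70 for Il17rb (adjusted p = 0.0553), -0.88 for Il17ra (adjusted p = 0.197), 0.32 for Crlf2 (adjusted p = 0.830) and -0.84 for Il13ra1 (adjusted p = 0.812), so that the first 3 were no smaller than without it. Neither stage IV call was kept, at log2 1.58 for Il1rl1 (adjusted p = 0.152) and 1.56 for Il17rb (adjusted p = 0.318). Over all genes the covariate brought the calls from 4855 to 258 for the average and from 1550 to 189 in stage IV. It also ended the calls of Il1rl1 in stage II (log2 1.36, adjusted p = 0.0788), of Il13ra1 in stage III (log2 -1.64, adjusted p = 0.343) and of the last steady state step of Il1rl1 (log2 0.99, adjusted p = 0.146).

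Other calls depended on the test. With limma-voom, Il1rap was not called from I to II (log2 1.16, adjusted p = 0.0933) or II to III (log2 -0.90, adjusted p = 0.137) of steady state. Il1rl1 was not called by it from III to IV of steady state (log2 1.04, adjusted p = 0.152) or between conditions in stage II (log2 1.28, adjusted p = 0.0883), against log2 values of 1.05 and 1.28 with edgeR. With the compared groups fitted alone, the calls of Il1rap were lost at log2 1.47 and -1.20 (adjusted p = 0.174 and 0.0627) and those of Il1rl1 at log2 1.07 and 1.18 (adjusted p = 0.123 and 0.0901). That fit also ended the call of Myd88 from I to II (log2 0.97, adjusted p = 0.138). With library totals as the scaling, Il1rap from I to II had a log2 value of 1.30 (adjusted p = 0.0678).

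The step from I to II differed between conditions for none of the 8 genes, against 0% of all genes, with 2 members at an unadjusted p under 0.05. The step from II to III differed for none, against 6.61%, with 0 members at an unadjusted p under 0.05, and DESeq2 and limma-voom called 0 in both. The step from III to IV differed for 2, Myd88 and Il17rb, against 18.7%, and the same 2 genes passed the joint test of any difference among the stages, against 17.8%.

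**Figure D4:**
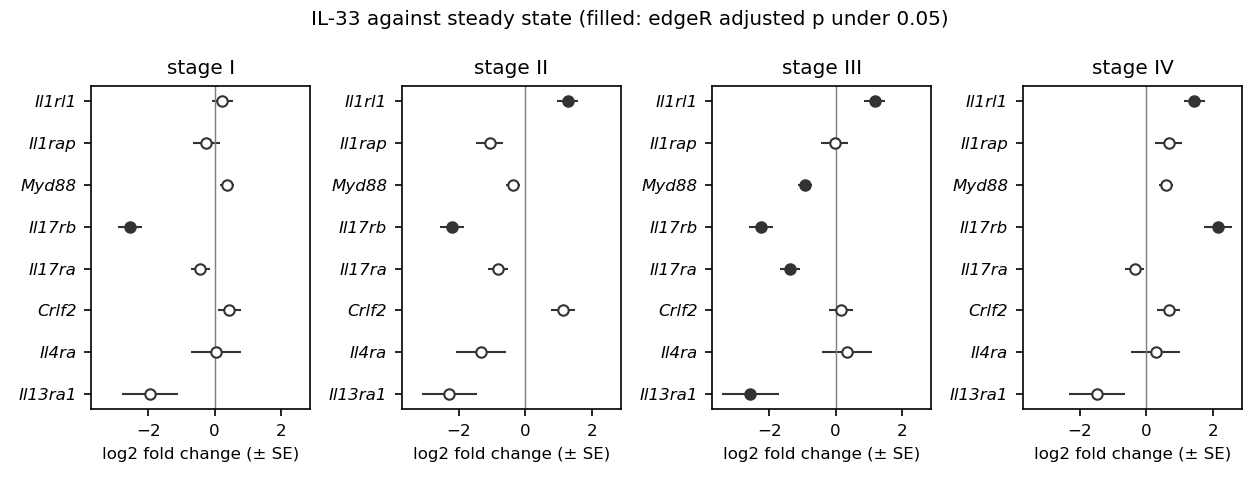
Log2 fold change (x axis, with SE bars) of IL-33 against steady state for the 8 tested genes in each stage; filled points passed an edgeR adjusted p of 0.05. Il17rb was between -2.55 and -2.19 in stages I to III and at 2.16 in stage IV, while Il1rl1 was between 1.17 and 1.45 in stages II to IV.

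Other genes of the same pathways were taken from 5 lists of 60 genes, 50 of them tested. Among 18 tested genes of the IL-1 receptor family and of Myd88 signalling, 2 were called under IL-33 in stage IV, both higher, against 12.2% of all genes. Il1r2, a decoy receptor for IL-1, went from 27.1 CPM ± 21.2 to 279 CPM ± 42.1 (SD, n = 3 each; log2 3.37, SE 0.57, adjusted p = 0.000300). Sigirr, an inhibitory member of the family, went from 14.6 CPM ± 6.60 to 39.2 CPM ± 6.07 (SD, n = 3 each; log2 1.42, SE 0.34, adjusted p = 0.00707). In stage III 5 of the 18 were called, against 33.4% of all genes: Il1r2 was higher (log2 2.20, adjusted p = 0.00327), and Tab2, Il18rap, Irak2 and Irak4 were lower, by log2 values of -1.64, -1.61, -1.50 and -1.01. The list median was 0.29 in stage IV and -0.08 in stage III, against -0.04 and 0 over all genes.

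Of 5 tested adaptors and receptors of the IL-17 family, 1 was called in stage III, Traf5, at log2 -2.17 (SE 0.55, adjusted p = 0.00379), and none in stage IV, against the same 33.4% and 12.2% of all genes. Among 11 tested partner chains, JAK kinases and STAT factors, 3 were called higher in stage IV, where 12.2% of all genes were called. They were Il2rg, the common gamma chain, at log2 1.64 (SE 0.29, adjusted p = 0.000411), Il3ra at log2 1.67 (SE 0.41, adjusted p = 0.00837) and Jak2 at log2 1.60 (SE 0.28, adjusted p = 0.000388). Jak1 was lower in stage III, at log2 -0.83 (adjusted p = 0.00892).

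Among 13 negative regulators, 3 were called in stage IV, against 12.2% of all genes, all higher and all of the SOCS family that JAK and STAT signalling induces. Socs2 stood at 103.1 CPM ± 19.1 under IL-33 and 0.288 CPM ± 0.344 in steady state (SD, n = 3 each; adjusted p = 9.23e-06). Cish stood at 269 CPM ± 52.1 against 48.0 CPM ± 15.7 (adjusted p = 0.0288), and Socs1 at 132.2 CPM ± 40.6 against 36.4 CPM ± 12.6 (adjusted p = 0.00637). Socs2 and Socs1 were called higher under IL-33 in stages I, II and III as well. Usp18, which restrains interferon signalling, was lower in stages I, II and III, at log2 -2.61, -3.08 and -2.98 (adjusted p = 0.0127, 0.00154 and 0.000256).

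For each tested member the 4 genes of most like pattern were found by Pearson's r of log2(CPM + 0.5) over the 24 libraries, among genes with a group mean of at least 20 CPM. These r are descriptions, since libraries of a group share their stage and condition. For Il1rl1 they included Furin (r = 0.90), Gab2 (0.90) and Grb7 (0.88). For Myd88 they were Evi2a (0.97), Arl8a (0.97), Capg (0.97) and Pqlc3 (0.96), and for Il17ra Nfam1 (0.96), Ripor2 (0.95), Stk38 (0.95) and Lyn (0.95). Crlf2 was most like Yipf3 (0.93), H2-T23 (0.93), Mettl7a1 (0.92) and Slc41a3 (0.91), and Il1rap most like Cbfb (0.86), Cyfip2 (0.85), Zmpste24 (0.85) and Optn (0.84). The highest values were lower for Il13ra1 (Vps18, 0.85) and for Il4ra (Ncoa5, 0.78).

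The gene most like Il17rb was Chdh (r = 0.91), followed by Myb (0.90), Hk3 (0.88) and Anxa3 (0.88). Chdh is the neighbour of Il17rb shown with the sequences, at 30009023 to 30040527 on the plus strand of chromosome 14, a position looked up after its values were seen. It averaged 45.7 CPM ± 5.54 in stage I, 26.9 CPM ± 12.1 in stage II, 18.2 CPM ± 5.29 in stage III and 1.98 CPM ± 1.62 at stage IV of steady state (SD, n = 3 each). Under IL-33 it averaged 27.4 CPM ± 11.9, 20.5 CPM ± 6.25, 9.27 CPM ± 5.47 and 4.37 CPM ± 1.77 (SD, n = 3 each). It fell from stage III to IV in steady state (log2 -3.15, SE 0.63, adjusted p = 0.00249). Its IL-33 effects were log2 -0.74, -0.39, -0.97 and 1.09 in stages I to IV, and none was called (adjusted p between 0.193 and 0.724). Its difference of the step from III to IV was log2 2.07 (SE 0.83, adjusted p = 0.0897). After each group's mean was taken away, r with Il17rb was 0.61 for Chdh, 0.61 for Myb, 0.63 for Hk3 and 0.31 for Anxa3, so that Chdh did not stand apart from these.

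**Figure D5:**
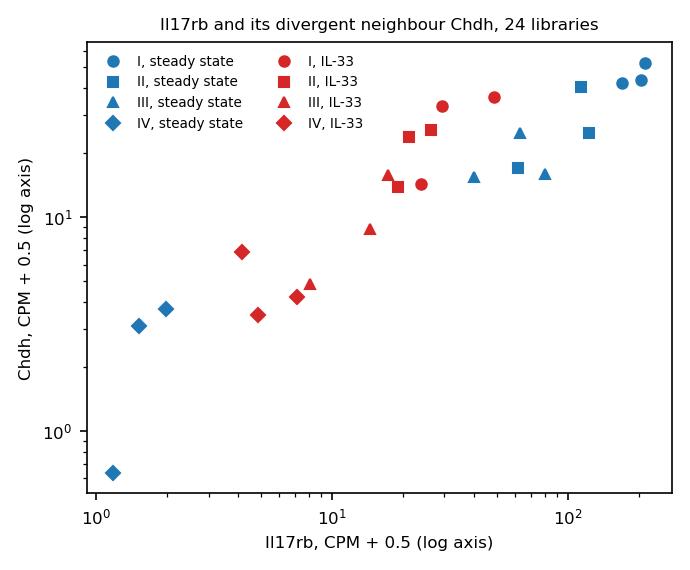
Chdh against Il17rb in the 24 libraries, both as CPM + 0.5 on log axes; colours are the conditions and symbols the stages. Both genes were highest in stage I of steady state (means of 45.7 and 195.8 CPM) and lowest in stage IV of steady state (means of 1.98 and 1.06 CPM).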

How the data were processed

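Messenger RNA of sorted mouse bone marrow eosinophils was sequenced in 24 libraries (per the labels' protocols, with SMART-Seq v4 cDNA and Nextera XT libraries, which do not mark strand). The deposited files give whole-number read counts per gene. Per the submitters' processing notes, reads were handled with STAR 2.6.1a on mm10 and with DESeq2. How reads were counted, with which strand setting and which annotation, is not given in the sources used here. Rows for reads of no gene (shares above) and ambiguous reads (1.73% to 2.60%) were left out.

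Counts were fitted in R 4.3.3 with edgeR 4.0.16 (filter by group, TMM factors, quasi-likelihood test, 1 fit of 8 groups), giving 15 comparisons, with Benjamini-Hochberg adjustment over 12743 genes. SE is the size of the log2 value over the square root of F. Alternatives were DESeq2 1.42.0, limma-voom (limma 3.58.1), other scalings, no filter, a replicate block, a fit of the compared groups alone, a covariate and leaving out libraries. The procedure was tested on simulated data. For each gene, precision is set by the spread of libraries within groups, estimated once over all 8 groups of 3 libraries. An SE thus need not follow the spread of the groups compared. The series' design text calls the triplicates biological.

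Positions are from GENCODE M21 (GRCm38, equal to mm10), by symbol. The members and lists were chosen with earlier results of these data known. All 9 members are named; list genes are named where they passed the threshold with a group mean of at least 5 CPM and were in the top 3 of their list, with others of a small count added after their values were seen. Some genes these rules chose are not reported here.

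Same-numbered libraries deviated together, with every correlation over 0.1, from stage I to II (0.138 to 0.361) and III to IV (0.135 to 0.267) in steady state and from I to II (0.194 to 0.292) and II to III (0.177 to 0.311) under IL-33. The labels give the numbers alone, so this pairing rests on the data.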

Additional observations from a re-analysis of the deposited data

Results flagged for a closer look

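The last step of maturation, from stage III to IV, differed between conditions for 2 members by edgeR's test of the difference itself. For Il17rb the difference, IL-33 minus steady state, was log2 4.40 (SE 0.56, adjusted p = 1.33e-05), with means of 60.6 and 1.06 CPM in steady state and 12.8 and 4.88 CPM under IL-33. For Myd88 it was log2 1.52 (SE 0.30, adjusted p = 0.00111), with means of 259 and 215 CPM in steady state and 137 and 325 CPM under IL-33. Both stayed called under all 21 alternatives run for each, between 3.98 and 4.72 for Il17rb and between 1.11 and 1.69 for Myd88.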

How the results depend on the processing

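Of 32 calls on members, 12 held under every alternative and none reversed; of 1936 alternative values 62 lost and 28 gained a call. For the step I to II of steady state, 1 member was called with limma-voom (526 of 12743 genes) and with library totals (519 of 12743). Without the 4 steady state libraries numbered 3 it was 1 (537 of 12913 genes), and with the replicate block 4 (1069 of 12743). With the compared groups alone it was 0 (21 of 11292 genes), and with single libraries left out 0 to 2 (289 to 675 genes). With the compared groups alone the member count from II to III was 1 in steady state (1965 of 10905 genes) and 2 under IL-33 (678 of 11257). Between conditions in stage IV it was 1 with that fit (1101 of 11166 genes). With limma-voom it was 1 from I to II and 2 from II to III under IL-33 (905 and 1089 of 12743 genes). Between conditions in stage I it was 2 with limma-voom (2536 of 12743 genes). Between conditions in stage II DESeq2 called 6 (1574 of 12736 genes) and the covariate on reads of no gene 1 (310 of 12743). Leaving out single libraries called 1 or 2 there (381 to 1033 genes). That covariate called 0 in stage IV and 0 for the average (189 and 258 of 12743 genes). From III to IV under IL-33, single libraries left out gave between 3 and 5 (2637 to 3086 genes). The cause was not tested.

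The replicate block between conditions, where numbers do not pair libraries, added Crlf2 in stage II (log2 1.22, adjusted p = 0.0181). In all steps between stages 6 of 6 libraries correlated best with their own number, also where a pair was under 0.1 (lowest 0.0759 from II to III in steady state and 0.0609 from III to IV under IL-33). Library totals as scaling moved the median log2 of all genes from 0 to -0.33 from II to III in steady state. Il7r had 85 counts in all, too few to pass the filter.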

Other observations

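Most ligands of these receptors were undetected or scarce in the sorted cells, while Il4 had counts in every library. Il25 had no count in any of the 24 libraries, and Il33 had 46 counts, all in 1 library. Il5 and Il9, cytokine genes of the same list that are not ligands of these receptors, had no count either. Tslp averaged 11.7 and 4.80 CPM in stages I and II of steady state, and at most 2.84 CPM in the other groups. Il4 averaged 243 CPM ± 13.95 in stage III of steady state and 79.1 CPM ± 13.5 under IL-33 (SD, n = 3 each; log2 -1.62, SE 0.25, adjusted p = 3.52e-05). Its means were highest in stage IV, at 484 CPM in steady state and 334 CPM under IL-33, and it was not called between conditions there. Il13 averaged 4.54 CPM in stage IV under IL-33 and at most 0.524 CPM in the other groups.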
